A study of Homo sapiens with 27 samples.

Results

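EWSR1 and TAF15, which encode proteins of the FET family, and FLI1, ERG, ETV1 and ETV4, which encode transcription factors of the ETS family, were followed in RM82, an established cell line of Ewing's sarcoma. The members were all transcripts in the 6 RM82 libraries whose Ensembl identifier, without its version, carries one of these 6 symbols in GENCODE release 44. Of 97 annotated transcripts of the 6 genes, 49 were listed in at least 1 library, among 93530 transcripts listed in all. They held 1040 of the 2715216 counts. The study compared 3 libraries labelled CLK1, from RM82 cells incubated for a day with SGC-CLK-1, with 3 libraries labelled DMSO, from RM82 cells given the solvent dimethylsulfoxide. All were cultured alike, and the dose of the compound is not given in the sources used here. SGC-CLK-1 inhibits CDC2-like kinases, which phosphorylate the serine- and arginine-rich proteins that guide the choice of splice sites. Messenger RNA was copied from its poly(A) tail with primers that carried a unique molecular identifier (UMI) and, per the study's methods, was sequenced as long reads on an Oxford Nanopore instrument. The study also sequenced RM82 RNA on an Illumina instrument, and the labels of these libraries name a preparation kit for Illumina, so that these are long reads rests on the methods text alone. The total count was 666702, 362826 and 373004 in SGC-CLK-1 replicates 1, 2 and 3, and 416352, 523456 and 372876 in DMSO replicates 1, 2 and 3. The study states in general terms that its experiments were repeated independently, but the labels do not tie these libraries to separate cultures, so p-values measure the spread between these libraries, which may be technical.

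FET proteins bind RNA and take part in transcription and splicing. Ewing's sarcoma is driven by a fusion of the first part of a FET gene, nearly always EWSR1, with the last part of an ETS gene, most often FLI1 and less often ERG, while ETV1 and ETV4 are rare partners. The fusion protein keeps the low-complexity part of the FET protein and the DNA-binding ETS domain, and it is transcribed from the FET gene's promoter. The reference to which the reads were mapped held normal human transcripts and no fusion transcript. A read from a fusion may have been counted on transcripts of its FET gene or its ETS gene, which was not tested. Within the counts such a read cannot be told apart from a read of the unrearranged gene.

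Several counted coding transcripts differed from each other by short exons or parts of exons, which are shown here because some of the isoform shares described later turn on them. Other differences, such as retained introns, first exons and longer exons, are not shown. The sequences were read from the GENCODE release 44 transcripts (GRCh38), 5′ to 3′ along the gene, and each lies within annotated coding sequence. The counted ERG transcripts differed in their first exons, by an exon of 218 bases (chr21:38445404-38445621) that 2 of the 10 lack, and by an exon of 72 bases (chr21:38400574-38400645, minus strand) and an exon of 69 bases (chr21:38392376-38392444, minus strand), each present in some transcripts and skipped in others.
ERG exon of 72 bases: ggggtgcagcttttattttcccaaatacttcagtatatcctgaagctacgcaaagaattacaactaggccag
ERG exon of 69 bases: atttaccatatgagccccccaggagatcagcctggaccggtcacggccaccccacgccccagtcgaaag
EWSR1 transcripts differed by an exon of 18 bases (chr22:29274265-29274282, plus strand; capitals, shown with 15 bases of each neighbouring exon) and by the first 3 bases of an exon of 38 bases (chr22:29291562-29291599, plus strand; capitals mark the 3 bases that the shorter form of 35 bases lacks, after 15 bases of the exon before it).
EWSR1 exon of 18 bases: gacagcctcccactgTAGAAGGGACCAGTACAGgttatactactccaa
EWSR1 exon of 38 bases: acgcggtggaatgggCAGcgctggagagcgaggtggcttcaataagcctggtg
The 2 counted coding transcripts of TAF15 differed by the last 9 bases of an exon of 85 bases (chr17:35820164-35820248, plus strand, in capitals). They also differed in where the first exon starts and the last exon ends. ENST00000603777, which the annotation gives as a target of nonsense-mediated decay, holds 2 exons that neither coding transcript has, of 92 bases (chr17:35809972-35810063) and of 78 bases (chr17:35817240-35817317).
TAF15 exon of 85 bases: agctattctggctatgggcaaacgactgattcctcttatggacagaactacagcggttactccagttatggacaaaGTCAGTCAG
TAF15 exon of 92 bases: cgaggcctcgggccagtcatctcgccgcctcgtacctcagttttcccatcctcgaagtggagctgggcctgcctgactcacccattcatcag
TAF15 exon of 78 bases: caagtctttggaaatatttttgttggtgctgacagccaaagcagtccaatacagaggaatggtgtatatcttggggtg

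ETS genes are alike in the stretch that encodes the DNA-binding domain. Even so, the longest run of bases that any FLI1 transcript shared with any ERG transcript was 17 bases, accaacggggagttcaa, within coding sequence of both (chr11:128810542-128810558 in FLI1 and chr21:38383824-38383840 in ERG). No stretch of 31 bases occurred in transcripts of both FLI1 and ERG, of both EWSR1 and TAF15, or of both ETV1 and ETV4. Within a gene the picture was the opposite. In ENST00000397938 and ENST00000406548, the EWSR1 transcripts with the most counts, 0% of the stretches of 31 bases were absent from all other counted EWSR1 transcripts. At this length the genes of each pair were told apart by all of their sequence, while these 2 transcripts could be told from the others by no stretch of that length of their own. Among the ERG transcripts the share of stretches found in no other counted transcript of the gene was at most 7.89%. It was higher in some transcripts with a retained intron, such as ENST00000479135 of EWSR1 (33.1%) and ENST00000604434 of TAF15 (93.9%).

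**Figure D1:**
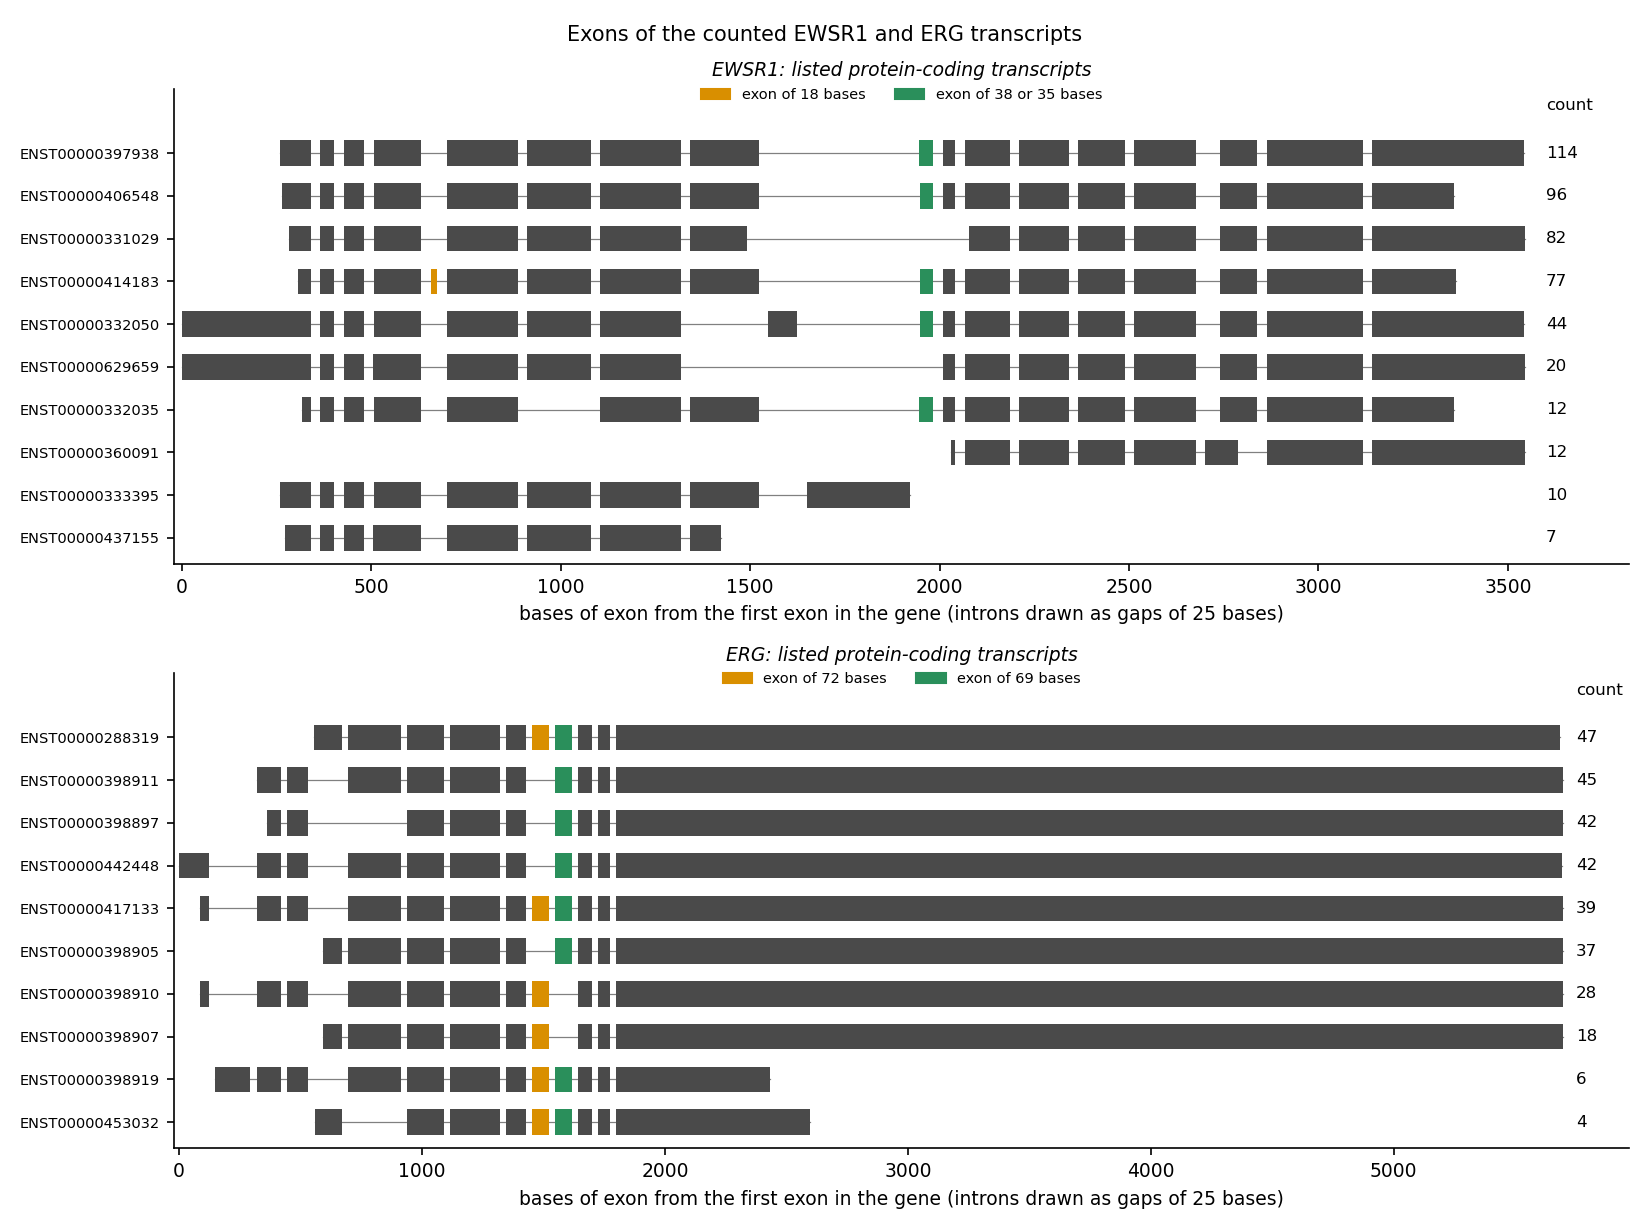
Exons of the 10 counted protein-coding transcripts with the most counts of EWSR1 (top) and of ERG (bottom), drawn to scale along the horizontal axis in bases of exon, with each intron replaced by a gap of 25 bases. Numbers on the right are the counts summed over the 6 libraries, coloured blocks are the exons named in the keys, and 8 of the 10 ERG transcripts end in the same long last exon.

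RM82 was checked against genes that mark Ewing's sarcoma cells. Of 12 such genes, 11 had counts. CAV1, which encodes a protein of membrane caveolae, was the most abundant, with a mean of 3306 CPM (CPM is the count scaled to the library total). CD99, a surface protein used to diagnose the tumour, had between 93.7 and 174 CPM. NR0B1, a nuclear receptor gene switched on by the fusion protein, had 20 counts in all, and NKX2-2, a transcription factor gene used in diagnosis, was listed in no library. Markers of other cells were few. The B and plasma cell markers, led by PTPRC, summed to between 15.3 and 38.4 CPM, with 3 of 6 at 0. The T cell markers CD3D and CD3E were at 0 in every library. The epithelial markers, led by CDH1, summed to between 2.76 and 16.5 CPM with KRT19 at 0, the endothelial markers to at most 5.73 CPM with CDH5 at 0, and of 3 muscle genes only DES had a count, 1 in 1 library. In bulk libraries such as these, fewer cells that use a gene and less RNA of it per cell cannot be told apart.

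Of the 6 genes, EWSR1, TAF15 and ERG were counted in all 6 libraries, ETV1 in 2 and ETV4 in 1, and FLI1 was listed in none. Levels were compared between genes on the scale of CPM per kb, for which the CPM of each transcript was divided by its length. A UMI marks a molecule, so a count need not rise with transcript length. If it does not, this scale understates genes with long transcripts, such as ERG, which was not tested. On this scale EWSR1 was at 127, 90.1 and 107 CPM per kb in the SGC-CLK-1 replicates and at 83.4, 72.4 and 54.9 in the DMSO replicates. TAF15 was at 36.1, 35.7 and 18.5 CPM per kb with SGC-CLK-1 and at 46.8, 19.0 and 21.8 with DMSO. ERG was at 29.9, 13.4 and 38.1 CPM per kb with SGC-CLK-1 and at 19.5, 22.4 and 20.9 with DMSO. The level of EWSR1 was above that of TAF15 in 6 of 6 libraries and their ranges did not overlap, with means over all libraries of 89.1 and 29.7 CPM per kb. TAF15 and ERG, at a mean of 24.0, did not differ beyond their spread: TAF15 was higher in 4 of 6 libraries. The levels of ETV1 (mean 1.77 CPM per kb) and ETV4 (mean 0.827) lay below those of ERG in every library. In CPM without division by length the means of ERG and TAF15 were 112 and 60.3 CPM, again with overlapping ranges, and ERG was higher in 4 of 6 libraries. EWSR1 lay above 94.7% of the 18776 genes listed in these libraries in CPM per kb, TAF15 above 82.5% and ERG above 79.3%.

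**Figure D2:**
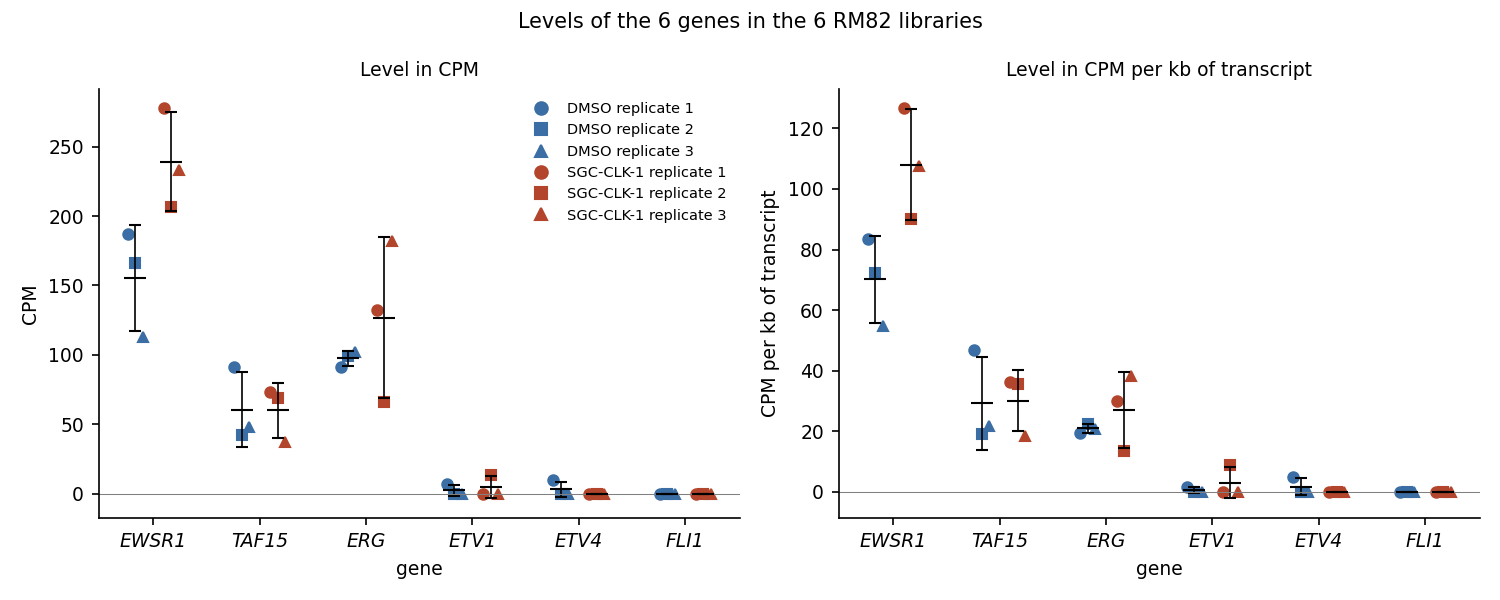
Level of each of the 6 genes in each library, in CPM (left) and in CPM per kb of transcript (right). Points are libraries, horizontal bars are means and vertical bars are SDs over the 3 libraries of a group. EWSR1 has the highest values on both axes, the 3 SGC-CLK-1 points of EWSR1 lie above the 3 DMSO points, and ETV1, ETV4 and FLI1 sit at or near 0.

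EWSR1 (ENSG00000182944, chr22:29268009-29300525, plus strand) encodes an RNA-binding protein and is the usual first part of the fusion. Its counts were 185, 75 and 87 with SGC-CLK-1 and 78, 87 and 42 with DMSO, which is 277, 207 and 233 CPM against 187, 166 and 113 CPM. Every SGC-CLK-1 library lay above every DMSO library. The mean was 239 ± 35.8 CPM (SD, n = 3) with SGC-CLK-1 and 155 ± 38.5 CPM (SD, n = 3) with DMSO. In edgeR's quasi-likelihood test over 6344 genes, the log2 fold change was 0.55 (SE 0.24, 95% confidence interval 0.042 to 1.07), with an unadjusted p of 0.0358 and a Benjamini-Hochberg adjusted p of 0.318, so the difference did not pass the threshold of 0.05. Of all genes tested, 0.236% passed that threshold, 6.89% were higher with an unadjusted p under 0.05, and 12.3% were higher without overlap between the groups. With no filter on low counts 0.9% of 18776 genes passed it, and EWSR1 did not (adjusted p = 0.444 by edgeR). The log2 fold change fell to 0.39 without DMSO replicate 3, the library with the lowest EWSR1 level, and to 0.41 without SGC-CLK-1 replicate 1. RHBDD3, on the other strand, shares 121 exonic bases with EWSR1 and had 28 counts in all.

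The EWSR1 counts were spread over 19 of 22 annotated transcripts. Coding transcripts held 477 of 554 counts (86.1%, 95% Clopper-Pearson interval 82.9 to 88.9%) and 6 transcripts with a retained intron held the other 77. Transcripts that run from the first part of the gene to its last exon held 473 counts (85.4%). Transcripts that cover only the last part of the gene held 41 (7.40%), and those that end before it held 40 (7.22%). Such intervals cover counting error only, and a molecule that maps equally well to several transcripts may have been counted on more than 1 of them. The largest count on any single EWSR1 transcript, which does not add up transcripts, was 37, 19 and 17 with SGC-CLK-1 and 14, 21 and 6 with DMSO.

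Of the 49 listed transcripts of the 6 genes, 4 passed the filter on low counts, and all 4 were EWSR1 transcripts. ENST00000397938, which has the exon of 38 bases, held 20.6% of the gene's counts (interval 17.3 to 24.2%), with 37, 19 and 17 counts with SGC-CLK-1 and 14, 21 and 6 with DMSO. ENST00000406548, which has the shorter form of 35 bases, held 17.3%, with 33, 13 and 17 counts against 10, 17 and 6. ENST00000331029, which skips that exon and the next, held 14.8%, with 23, 14 and 15 counts against 10, 16 and 4. ENST00000414183, with the form of 35 bases and the added exon of 18 bases, held 13.9%, with 31, 11 and 12 counts against 7, 12 and 4. Relative to the library totals all 4 were higher in every SGC-CLK-1 library than in any DMSO library. This pattern was shown by 13.3% of the 7840 transcripts tested. The filter asks for enough counts in as many libraries as a group holds. All 4 met it in the SGC-CLK-1 libraries, and none in the DMSO libraries alone. They were thus tested through the group in which they were higher, and the pattern is not independent of the filter. The 4 share most of their sequence and are not independent of each other. Their log2 fold changes were 0.74, 0.84, 0.72 and 1.11, in the order given, and 0.46, 0.62, 0.42 and 0.89 without DMSO replicate 3. None passed the edgeR test, in which 3.95% of all transcripts did: the Benjamini-Hochberg adjusted p was 0.231, 0.192, 0.311 and 0.106. ENST00000414183, the nearest to the threshold, lay below the level of the filter in every DMSO library. Its SE was 0.39 and its 95% confidence interval 0.32 to 1.91.

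Whether SGC-CLK-1 shifted the balance between EWSR1 transcripts was asked with the usage test of edgeR. The test compares each transcript that passed the filter on low counts with the others of its gene that did. EWSR1 was the only one of the 6 genes with enough counts for it. It was not called, with an edgeR adjusted p of 1.00 (unadjusted p of 0.97), while 0.277% of the 1805 genes tested were. Relative to the gene's other tested transcripts, the differences in log2 fold change ran from -0.13 for ENST00000331029 to 0.26 for ENST00000414183. Only the tested coding transcripts described above entered, all admitted through the SGC-CLK-1 libraries, and no retained-intron transcript did. The entered transcripts share most of their sequence, and a molecule may have been counted on more than 1 of them. The usage test therefore cannot decide whether the balance between the EWSR1 transcripts shifted. Transcripts with the exon of 18 bases held 16.8, 14.7 and 13.8% of the EWSR1 counts with SGC-CLK-1 and 8.97, 13.8 and 9.52% with DMSO. The groups met at 12 of 87 counts, in SGC-CLK-1 replicate 3 and DMSO replicate 2 (exact two-sided permutation test, p = 0.2, where 3 libraries against 3 cannot go below 0.1). Retained-intron transcripts held 14.1, 9.33 and 14.9% with SGC-CLK-1 and 23.1, 6.90 and 16.7% with DMSO, so DMSO replicates 1 and 2 spanned all SGC-CLK-1 values. The exon of 18 bases ends 1924 bases before the end of its transcript. Read lengths were not analysed here, and how many reads from the poly(A) tail reached that exon was not tested.

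TAF15 (ENSG00000270647, chr17:35809482-35864615, plus strand) encodes a FET protein found with the general transcription factor TFIID, and it is fused to other genes in a few sarcomas. It had 49, 25 and 14 counts with SGC-CLK-1 and 38, 22 and 18 with DMSO, which is 73.5, 68.9 and 37.5 CPM against 91.3, 42.0 and 48.3 CPM. The groups overlapped throughout, and the lowest and highest values were SGC-CLK-1 replicate 3 and DMSO replicate 1. The log2 fold change was -0.053 (SE 0.38, 95% confidence interval -0.87 to 0.77, adjusted p = 0.969 by edgeR), and its sign was not stable: it was 0.016 with scaling by library size alone, 0.16 without SGC-CLK-1 replicate 3 and 0.33 without DMSO replicate 1. The interval leaves room for a change of this gene in either direction.

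Coding transcripts held a smaller share of the TAF15 counts than of the EWSR1 or ERG counts in every library. The share ran from 21.4 to 55.3% over the libraries for TAF15 and from 76.9 to 93.1% for EWSR1, and all ERG counts were on coding transcripts. Over all libraries the coding transcripts of TAF15 had 71 of 166 counts (42.8%, interval 35.1 to 50.7%). The interval covers counting error only, and a molecule may have been counted on more than 1 transcript. Transcripts annotated as targets of nonsense-mediated decay held 50 (30.1%) and transcripts with a retained intron held 45 (27.1%). Of the annotated transcripts, 15 of 22 are coding for EWSR1 and 3 of 18 for TAF15. How far the shares follow these numbers was not tested. The single TAF15 transcript with the most counts was ENST00000603777, with the exons of 92 and 78 bases shown above. It had 15, 6 and 5 counts with SGC-CLK-1 and 7, 8 and 5 with DMSO. The coding transcripts ENST00000605844 and ENST00000604841, which differ by 9 bases within an exon and in their outer ends, had 40 and 31 counts in all. Coding transcripts took 40.8, 32.0 and 21.4% of the TAF15 counts with SGC-CLK-1 and 55.3, 50.0 and 44.4% with DMSO, so the groups did not overlap and the SGC-CLK-1 shares were lower. This was 1 of 2 among 20 such class shares whose groups did not overlap, and the exact two-sided permutation test gave p = 0.1, the smallest that 3 against 3 allows, and 0.875 after Benjamini-Hochberg adjustment over the 20. In SGC-CLK-1 replicate 3 the share rests on 3 of 14 counts.

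Among the retained-intron transcripts of TAF15, ENST00000605197 had 9, 5 and 0 counts with SGC-CLK-1 and 1, 1 and 2 with DMSO. ENST00000604434, 1 exon of 2103 bases at the start of the gene, had 0, 2 and 2 counts with SGC-CLK-1 and 7, 2 and 3 with DMSO. The groups of both overlapped. ENST00000605649 had 1, 2 and 2 counts with SGC-CLK-1 and none in the 3 DMSO libraries, too few to be tested by edgeR (exact two-sided permutation test on log2(CPM + 1), p = 0.1). Of the 49 listed transcripts of the 6 genes, 7 were higher without overlap, this one included, and 0 were lower. Among transcripts that passed the filter 13.3% were higher in this way, but only 4 of the 49 passed it. The share over all listed transcripts is not given here for either direction, so these numbers give no result about the 6 genes.

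**Figure D3:**
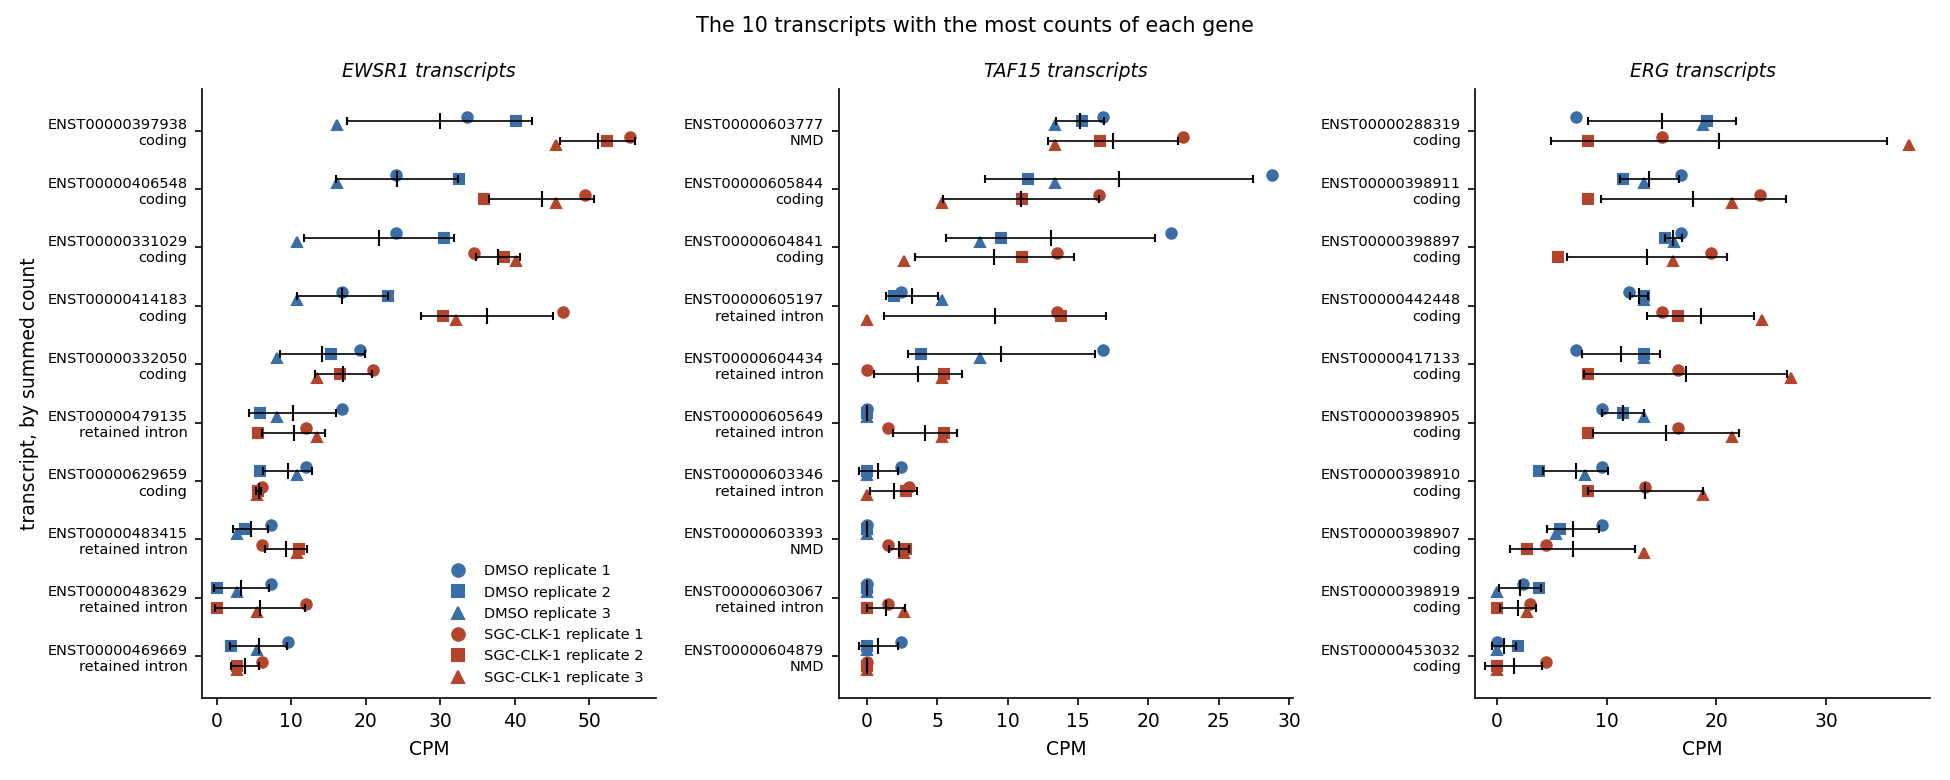
Level in CPM of the 10 transcripts with the most counts of EWSR1, TAF15 and ERG, named on the vertical axes with their annotated type (NMD stands for nonsense-mediated decay). Points are libraries, and black bars are the mean and SD of 3 libraries. The groups stand apart in the first 4 EWSR1 transcripts and mix in most of the others.

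ERG (ENSG00000157554, chr21:38380027-38661780, minus strand) encodes an ETS factor of endothelial and blood stem cells and is the second most common ETS partner in Ewing's sarcoma. It had 88, 24 and 68 counts with SGC-CLK-1 and 38, 52 and 38 with DMSO. These are 132, 66.1 and 182 CPM against 91.3, 99.3 and 102 CPM, so the DMSO libraries lay close together and the SGC-CLK-1 libraries on both sides of them. The log2 fold change was 0.31 (SE 0.33, 95% confidence interval -0.39 to 1.00, adjusted p = 0.737 by edgeR). It was -0.021 without SGC-CLK-1 replicate 3 and 0.60 without SGC-CLK-1 replicate 2. The counts of ERG per count of EWSR1 were 0.476, 0.320 and 0.782 with SGC-CLK-1 and 0.487, 0.598 and 0.905 with DMSO, again overlapping. The endothelial markers PECAM1 and CDH5, whose cells use ERG, had 10 counts and 0 counts in all.

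All 308 ERG counts were on coding transcripts, 10 of 15 annotated, and the 5 transcripts that end before the last coding exon were not listed in any library. The 8 transcripts with the long last exon, of 3888 to 3897 bases, held 298 counts (96.8%, interval 94.1 to 98.4%), and the 2 with a last exon of 633 or 798 bases held 10. The last exon carries 518 coding bases in all 10, with most of the ETS domain. The first 6 transcripts were close to each other, from 47 counts for ENST00000288319 (15.3%, interval 11.4 to 19.8%) to 37 for ENST00000398905 (12.0%). Transcripts with the exon of 72 bases held 142 counts (46.1%, interval 40.4 to 51.8%) and those without it 166. By library, the exon of 72 bases was in 43.2, 41.7 and 54.4% of ERG counts with SGC-CLK-1 and in 39.5, 48.1 and 44.7% with DMSO. Transcripts that skip the exon of 69 bases held 46 counts (14.9%), with 13.6, 16.7 and 17.6% against 21.1, 9.62 and 13.2%. Both exons overlapped between the groups (exact two-sided permutation test, p = 0.7 each). They end 4071 and 4002 bases before the end of ENST00000417133, behind the long last exon, and how many reads reached them was not tested.

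By their annotation, the counted ERG transcripts start in 3 regions of the gene. Those that start farthest upstream held 115 counts (37.3%), those from the middle region 87 (28.2%) and those from the region farthest downstream 106 (34.4%). How many reads reached a first exon was not tested, and a molecule may have been counted on transcripts of more than 1 region. The shares therefore need not be those of the start sites used. The upstream region pools 2 separate first exons, 1 of them used only by ENST00000398919, which had 6 counts. The share of the upstream region was 36.4, 50.0 and 39.7% with SGC-CLK-1 and 34.2, 34.6 and 34.2% with DMSO. This was the other class share whose groups did not overlap, with the same exact permutation p of 0.1 and adjusted p of 0.875. The value of 50.0% comes from 12 of 24 counts. Without ENST00000398919, left out after its values were seen, the shares were 34.1, 50.0 and 38.2% against 31.6, 30.8 and 34.2%, and the groups overlapped (exact two-sided permutation test, p = 0.2). ENST00000442448, a transcript from the upstream region, had 10, 6 and 9 counts with SGC-CLK-1 and 5, 7 and 5 with DMSO. Relative to the library totals these were 15.0, 16.5 and 24.1 CPM against 12.0, 13.4 and 13.4 CPM, higher without overlap, in a transcript that did not pass the filter on low counts (exact two-sided permutation test on log2(CPM + 1), p = 0.1). The other 9 counted ERG transcripts overlapped, and 13.3% of the transcripts that passed the filter were higher without overlap.

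**Figure D4:**
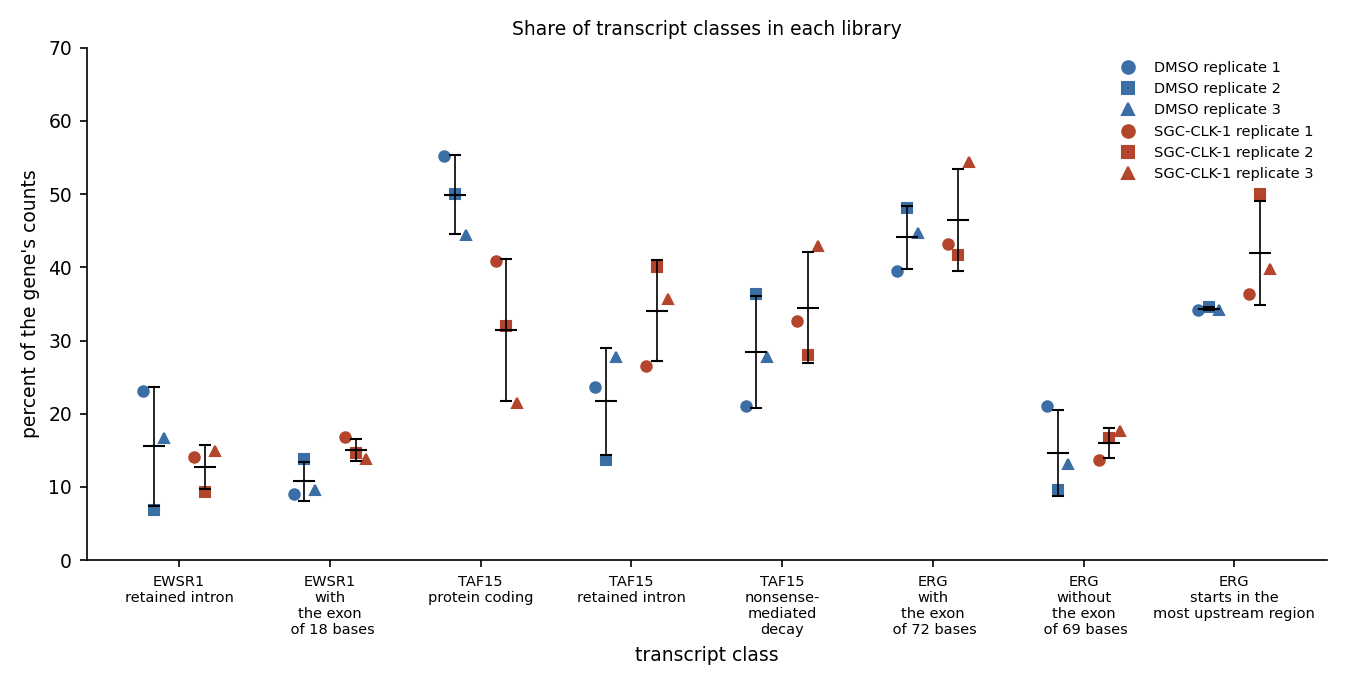
Share of a gene's counts, in percent, on 8 classes of transcripts of EWSR1, TAF15 and ERG in each library. Points are libraries, horizontal bars are means and vertical bars are SDs of 3 libraries. The groups stand apart for coding TAF15 transcripts (21.4 to 40.8% against 44.4 to 55.3%) and for ERG transcripts from the most upstream region, with its 2 first exons pooled, and meet or mix in the other 6 classes.

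FLI1 (ENSG00000151702, chr11:128686535-128813267, plus strand), the most common ETS partner, has 10 annotated transcripts, and none was listed in any of the 6 libraries. If an absent entry stands for a count of 0, the limit of 3 counts that a 0 allows is 4.50 to 8.27 CPM in single libraries and 1.10 CPM over the 6 libraries together, for counting error only. ERG, also an ETS gene, had 308 counts over the same libraries. SENCR, a long non-coding gene that overlaps FLI1 on the other strand, had no counts either.

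ETV1 (ENSG00000006468, chr7:13891229-13991425, minus strand) and ETV4 (ENSG00000175832, chr17:43527844-43579620, minus strand) encode related ETS factors of the PEA3 group. ETV1 had 5 counts in SGC-CLK-1 replicate 2, 3 counts in DMSO replicate 1 and none in the other 4 libraries. ETV4 had 4 counts in DMSO replicate 1 and none elsewhere. Each of these counts stood alone on a transcript of its own: the 5 ETV1 counts were on 5 transcripts, the 3 on 3 and the 4 ETV4 counts on 4. Among genes with counts on at least 2 transcripts, 14.7% of those with 5 counts in SGC-CLK-1 replicate 2 had 1 count on each. In DMSO replicate 1 the share was 62.6% of those with 3 counts and 41.8% of those with 4. The transcripts of a gene share sequence, so the number of molecules cannot be told from these counts. Neither gene passed the filter on low counts (exact two-sided permutation test on log2(CPM + 1), p = 1.00 for both). DHX8, on the other strand, shares 68 exonic bases with ETV4 and had 319 counts.

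The other genes of the ETS family were read in the same libraries, because the factors bind similar DNA motifs. Of 25 such genes 18 had counts and 5 passed the filter, of which 0 were called higher and 0 lower by edgeR. Their median log2 fold change was 0.12, against -0.0012 over all genes tested. At an unadjusted p under 0.05 by edgeR there was 1 higher, ELF2, and 1 lower, GABPA, and DESeq2 gave none of the 5 an adjusted p. GABPA met the filter in the DMSO libraries alone, so it was tested through the group in which it was higher. The level of ELF2 was 54.0, 85.4 and 88.5 CPM with SGC-CLK-1 and 40.8, 47.8 and 32.2 CPM with DMSO (log2 fold change 0.80, SE 0.35, adjusted p = 0.318 by edgeR). GABPA, which pairs with GABPB proteins to drive genes of mitochondria, was at 13.5, 8.27 and 24.1 CPM against 48.0, 26.7 and 32.2 CPM (log2 fold change -1.28, SE 0.53, adjusted p = 0.294 by edgeR). In both genes the 2 groups did not overlap, as in 12.3% of all genes tested in the direction of ELF2 and 7.58% in that of GABPA, yet neither passed the threshold. ETV3 had a log2 fold change of 0.53 and ETV6 of -0.14, while ELK4, with the highest mean in CPM of the 25 (67.8 CPM), had 0.12; per kb of transcript the mean was highest for ELF2, at 31.5 against 13.9 CPM per kb for ELK4. Of the rare fusion partners outside the 6 genes, FEV was at 0 in every library.

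Proteins that work with FET proteins or with the fusion were read in the same way. Of 9 genes, 7 were tested and 0 were called in either direction by edgeR, with 0 at an unadjusted p under 0.05, while DESeq2 gave an adjusted p to 3 of the 9 and called 0, and the median log2 fold change was -0.12. DHX9, which encodes an RNA helicase that binds the fusion protein, was at 145, 160 and 123 CPM with SGC-CLK-1 and at 113, 120 and 80.5 CPM with DMSO, without overlap, as in 12.3% of all genes tested in that direction (log2 fold change 0.37, adjusted p = 0.562 by edgeR). TNPO1, the importin that carries FET proteins into the nucleus, was at 147, 130 and 129 CPM against 125, 130 and 121 CPM, with overlap (log2 fold change 0.041, adjusted p = 0.963 by edgeR). At the other end, PRMT1, which methylates arginines of FET proteins, had a log2 fold change of -0.24 and EP300, a histone acetyltransferase, one of -0.18. HDAC2 and CHD4, subunits of the NuRD complex, had the highest means of the list in CPM, 507 and 410.4, and log2 fold changes of -0.17 and -0.12. Per kb of transcript the mean was highest for PRMT1, at 278 CPM per kb, against 193 for HDAC2 and 115 for CHD4.

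**Figure D5:**
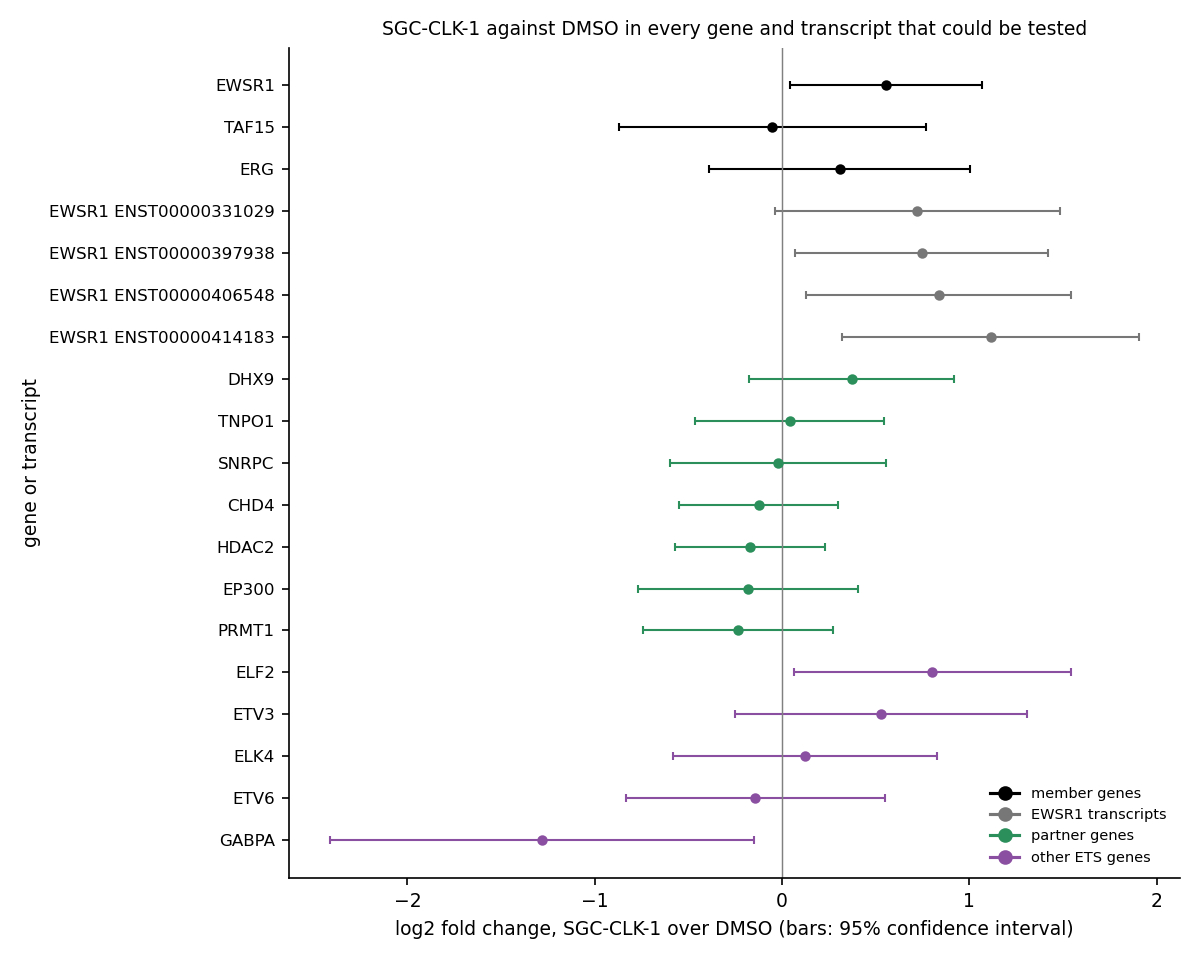
Log2 fold change of SGC-CLK-1 over DMSO, with 95% confidence intervals from edgeR, for the 3 member genes and 4 EWSR1 transcripts that could be tested, 7 partner genes and 5 other ETS genes. Most intervals cross 0, those of EWSR1, 3 of its transcripts and ELF2 lie above it and that of GABPA below it, but no adjusted p was under 0.05. The EWSR1 transcripts met the filter on low counts only through the SGC-CLK-1 libraries and GABPA only through the DMSO libraries, in each case the group in which they were higher.

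The genes most like each member across the 6 libraries were found by the root mean square difference of log2 CPM after centring each gene on its mean. For EWSR1 they were ANAPC5, a subunit of the anaphase-promoting complex (0.059), ERP29, a chaperone of the endoplasmic reticulum (0.095), and ELP2, a subunit of Elongator (0.10), against a median of 0.52 over 6343 genes. ANAPC5 was at 361, 281 and 284 CPM with SGC-CLK-1 and at 257, 214 and 142 CPM with DMSO. For TAF15 they were POLD2, a DNA polymerase subunit (0.11), MPPE1 (0.12) and EIF3F, a translation initiation factor subunit (0.13). For ERG they were CSTPP1 (0.13), the ribosomal protein gene RPL27A (0.15) and CDC40, a splicing factor gene (0.16). Close matches are easily found when 6343 genes are searched over 6 libraries.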

How the data were processed

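RM82 libraries labelled CLK1 (SGC-CLK-1) and DMSO, 3 each, were used. Per the study's methods, the authors called bases with Guppy and mapped reads to human transcripts (Ensembl 98, hg38) with minimap2, keeping up to 3 secondary alignments. The authors deposited counts per transcript after UMI deduplication, without normalization. Whether these files hold UMI-tools or homotrimer-corrected counts is not given in the sources used here. Unlisted transcripts were given 0. Of 93530 identifiers, 86362 matched GENCODE release 44, and 40 of the 49 member transcripts had the same version there. ENST00000397938, ENST00000603777, ENST00000605197 and ENST00000605649 were among those with another version. Their exons and types are those of release 44, which may differ from the release mapped.

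Counts, also summed per gene, were tested with edgeR 4.0.16 in R 4.3.3 (filterByExpr with minimum count 10 and minimum total 15, TMM, quasi-likelihood F-test, Benjamini-Hochberg over all features, threshold 0.05), and usage with diffSpliceDGE. DESeq2 1.42.0 was an alternative, with other scalings, filters, a replicate block, single libraries left out, and coding transcripts only. Permutation tests and intervals used scipy 1.17.1. CPM used library totals, with a pseudocount of 1 in permutation tests. On simulated data, edgeR recovered 91.0% of 200 genes changed by a fold of 4 and 25.0% of 200 changed by a fold of 2, among 6344 genes. Of its calls, 7.6 and 7.4% were wrong. Over transcripts it recovered 83.0 and 36.5%. The simulation gave all features a common dispersion, so recovery in the real libraries may differ.

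Described genes were the members, their tested transcripts and, of the 2 lists, called genes, the 2 largest log2 fold changes each way and the 2 with the highest mean CPM, with the 3 genes most alike for members averaging at least 20 counts a library. The other transcripts and FEV were chosen after their values were seen. Beyond the 9 partner genes counted in the text, 2 genes of that list are not reported here. The members and lists were chosen with earlier results of these data known. A table with 4 per-sample columns that could not be mapped, and the reports on molecular identifiers, were not used here.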

Additional observations from a re-analysis of the deposited data

How the results depend on the processing

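No gene or transcript of the 6 was called under any alternative that gave it an adjusted p. DESeq2 gave one only to the EWSR1 gene and ENST00000397938, and TAF15 was not tested with coding transcripts only, nor TAF15 and ERG with the largest single transcript. The log2 fold change of EWSR1 kept its sign in 14 of 14 alternatives, from 0.39 to 0.72, with adjusted p between 0.226 and 0.596, and leaving out single libraries gave 0.39 to 0.68. That of ERG ran from -0.021 to 0.60 with single libraries left out and fell below 0 without SGC-CLK-1 replicate 3 (-0.021). That of TAF15 ran from -0.28 to 0.33, and was above 0 without SGC-CLK-1 replicate 3 (0.16), without DMSO replicate 1 (0.33) and with scaling by library size alone (0.016). The cause was not tested. The tested EWSR1 transcripts stayed above 0 with single libraries left out, at 0.46 to 1.04 for ENST00000397938, 0.62 to 1.14 for ENST00000406548, 0.42 to 1.08 for ENST00000331029 and 0.86 to 1.43 for ENST00000414183. These 4 met the filter through the SGC-CLK-1 libraries, in which they were higher, and share most of their sequence. Their common sign is thus not independent of the filter or of each other. EWSR1 over ERG was 3.71 in CPM per kb and 1.76 in CPM, and ENST00000605844 held 24.1% of all TAF15 counts and 56.3% of those on coding transcripts, as the smaller denominator implies. The number of transcripts called over the whole table, 310, was 173 with at least 10 counts in every library, 162 with no filter, 128 with DESeq2 and 81 to 363 with single libraries left out. Of genes, 15 were called; 28 with scaling by library size, 64 with at least 10 counts in every library, 169 with no filter, 131 with DESeq2, 0 with coding transcripts only (724 at an unadjusted p under 0.05) and 164 with the largest single transcript in place of the sum, an alternative chosen after seeing the data. Single libraries left out gave 1 to 21 genes. With DESeq2 the median log2 fold change was -0.12 over the 1303 genes that it gave an adjusted p. Of genes in the usage test, 5 were called, 1 with at least 10 counts in every library, and 1 to 5 with single libraries left out. No ETS or partner gene was called in the gene alternatives, of which DESeq2 gave an adjusted p to 0 ETS and 3 partner genes.

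The labels number the replicates alike in both groups. Same-numbered libraries correlated at 0.059, 0.093 and -0.0018 in their deviations from the group means over transcripts, and differently numbered ones at -0.12 to 0.067. Over genes the values were 0.064, 0.024 and 0.031 against -0.074 to 0.036. The numbers were not taken as pairs in the main test, and these values do not settle whether they are. With the replicate number as a block, 427 transcripts, 36 genes and 4 genes in the usage test were called, and the log2 fold change of EWSR1 was 0.56, of ERG 0.22 and of TAF15 -0.060. Depth limits the member transcripts: 4 of 49 could be tested, and 23 had fewer than 10 counts over all libraries.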

Other observations

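GLI1, a transcription factor gene of Hedgehog signalling and 1 of the 12 Ewing's sarcoma markers, is named here after its values were seen. It had 7, 4 and 7 counts with SGC-CLK-1 and none in the 3 DMSO libraries, on 5 transcripts with at most 2 counts each per library. It did not pass the filter on low counts. With no filter, edgeR gave an adjusted p of 0.0475 over 18776 genes, of which 169 (0.9%) were called, while DESeq2 gave an unadjusted p of 0.00544 and no adjusted p. CCND1, a cyclin gene and another of the markers, was at 451, 499 and 488 CPM with SGC-CLK-1 and at 677, 502 and 684 CPM with DMSO, without overlap, as in 7.58% of all genes tested in that direction (log2 fold change -0.45, adjusted p = 0.323 by edgeR). Of the 12 markers 6 were tested and 0 were called by edgeR, with only CCND1 at an unadjusted p under 0.05, with a median log2 fold change of -0.21.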
